A study of Mus musculus with 2 samples.

Results

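Hair follicle stem cells rest in the bulge, the lowest permanent part of the follicle, and regrow the follicle in each hair cycle. The transcription factors Sox9, Lhx2, Nfatc1, Tcf7l1, Tcf7l2, Tbx1, Foxc1 and Foxi3 take part in specifying, holding or waking these cells or the placodes they come from, while Lgr5, a Wnt pathway receptor for R-spondins, and Cd34, a surface sialomucin, mark them. Bulge cells can contribute to the interfollicular epidermis after a wound. The 10 genes were followed here through their open chromatin in basal epidermal cells. Members are all peaks of the deposited table that overlap one of the genes, or that lie within 50 kb of it when no other protein-coding gene is nearer. They numbered 103 of 84594 peaks, 68 overlapping a gene and 35 beside one, and 0 of them overlapped another protein-coding gene.

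The study profiled accessible chromatin by ATAC-seq, in which a transposase cuts and tags open DNA, in mouse skin. The ablation library (labelled as basal lineage ablation) and the control library (labelled WT) each came from 50000 basal cells, sorted in the same way as high in α6 integrin, negative for CD34 and Lrig1, and positive for YFP, GFP and RFP. The titles carry K14, a keratin of the basal layer. The sources used here do not give the ablation method, the promoter that drives each reporter, the age or how many animals were pooled in a library. The gate selects against bulge cells by CD34 and against upper follicle cells by Lrig1, and its purity was not measured here. Follicle cells that carry neither protein on their surface are not excluded by these 2 markers, whichever of the 10 genes they express. With 1 library per condition no spread between animals could be measured, and no difference was tested; the intervals are 95% counting intervals of the 2 libraries only. Every direction given here rests on the match of the table's columns to the libraries by name, in which the column taken as ablation is named Exp.

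In nuclear peaks the ablation library had 12463908 reads (median 62 per peak) and the control library 17056996 (median 76). Mitochondrial reads made up 31.2% of all reads in peaks in ablation, against 7.31% in control. All 9 markers of basal interfollicular epidermis had a tested peak, with summed signals per gene of 941 to 3486 normalized reads in ablation and 1025 to 4015 in control. Among markers of other cell types, 5 of 8 fibroblast, 5 of 7 endothelial and 6 of 8 melanocyte genes had a tested peak. So did 5 of 7 Langerhans and myeloid genes and 4 of 5 spinous and granular genes. Of 6 T cell genes 5 were found among the protein-coding genes used, and 3 had a tested peak. Among those with none were Col1a2, Col3a1 and Lum of fibroblasts, Cdh5 and Emcn of endothelium, Tyr and Kit of melanocytes, and Cd3d and Cd3g of T cells. Others had summed signals in the range of basal markers. These were Pecam1 (2531 normalized reads in ablation, 2645 in control), Pmel (1481 and 1648), Mitf (1192 and 1308) and Cd2 (1551 and 1874). The strongest spinous and granular gene had 803 and 1047, the strongest fibroblast gene 358 and 363, and the strongest Langerhans and myeloid gene 239 and 239. The median log2 ratio per gene was -0.12 for basal, -0.24 for spinous and granular and 0.19 for fibroblast markers. It was 0.48 for endothelial, -0.14 for melanocyte, 0.12 for Langerhans and myeloid and -0.25 for T cell markers. The endothelial genes ran from -0.63 (Tek) to 1.23 (Tie1). Their median is the value of Kdr, with 1 tested peak of 46 reads in ablation and 42 in control. Fibroblast genes ran from -0.02 to 1.32, melanocyte genes from -0.51 to 0.40, and Langerhans and myeloid genes from -0.09 to 1.01. The part of such cells in the results was not tested. The median log2 ratio of ablation to control was -0.01 over the 76147 peaks tested and -0.07 over 16272 genes. It declined with signal, at 0.20 in the weakest and -0.18 in the strongest of 10 equal signal classes.

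The start regions of 5 transcripts are shown, because their peaks hold both the highest and among the lowest ratios at starts of the 10 genes. Each window runs from 250 bases before to 50 bases after a RefSeq transcript start (GRCm38.p6, the assembly of mm10), 5′ to 3′ on the gene's own strand. Windows were matched for 7 of the 10 genes; Sox9, Lgr5 and Nfatc1 were not matched. Capitals mark matches on either strand to letters typical of LEF/TCF (CTTTGA), SOX (ACAATG or ACAAAG), forkhead (TGTTTAC), LHX (TAATTA), NFAT (TGGAAA), T-box (GGTGTGA), AP-1 (TGANTCA), RUNX (TGTGGT) and GLI (TGGGTGG) factors.
Cd34, chr1:194938571-194938870, plus strand: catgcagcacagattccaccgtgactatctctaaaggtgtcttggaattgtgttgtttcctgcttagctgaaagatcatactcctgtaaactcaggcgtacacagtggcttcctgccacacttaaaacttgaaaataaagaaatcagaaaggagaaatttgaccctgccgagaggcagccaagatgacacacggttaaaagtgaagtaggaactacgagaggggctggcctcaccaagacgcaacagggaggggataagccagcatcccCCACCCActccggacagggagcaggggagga
Foxi3, chr6:70956356-70956655, plus strand: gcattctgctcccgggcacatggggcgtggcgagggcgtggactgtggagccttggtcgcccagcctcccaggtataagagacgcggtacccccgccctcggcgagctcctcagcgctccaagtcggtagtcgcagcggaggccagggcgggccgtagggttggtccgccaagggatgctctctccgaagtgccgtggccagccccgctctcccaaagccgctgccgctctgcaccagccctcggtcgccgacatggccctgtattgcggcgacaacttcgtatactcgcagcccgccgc
Lhx2 upstream start, chr2:38339031-38339330, plus strand: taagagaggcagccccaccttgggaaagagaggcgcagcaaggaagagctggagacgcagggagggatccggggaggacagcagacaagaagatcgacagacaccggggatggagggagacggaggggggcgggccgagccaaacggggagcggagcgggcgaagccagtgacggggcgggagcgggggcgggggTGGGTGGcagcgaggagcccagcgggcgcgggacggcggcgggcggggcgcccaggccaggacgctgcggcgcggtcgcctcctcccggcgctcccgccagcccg
Lhx2 downstream start, chr2:38351058-38351357, plus strand: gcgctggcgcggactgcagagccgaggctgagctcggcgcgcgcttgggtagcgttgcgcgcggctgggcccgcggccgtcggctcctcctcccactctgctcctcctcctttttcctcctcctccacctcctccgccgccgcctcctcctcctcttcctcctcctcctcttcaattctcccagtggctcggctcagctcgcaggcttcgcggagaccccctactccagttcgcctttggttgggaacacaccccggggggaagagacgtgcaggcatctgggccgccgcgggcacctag
Tcf7l2, chr19:55741560-55741859, plus strand: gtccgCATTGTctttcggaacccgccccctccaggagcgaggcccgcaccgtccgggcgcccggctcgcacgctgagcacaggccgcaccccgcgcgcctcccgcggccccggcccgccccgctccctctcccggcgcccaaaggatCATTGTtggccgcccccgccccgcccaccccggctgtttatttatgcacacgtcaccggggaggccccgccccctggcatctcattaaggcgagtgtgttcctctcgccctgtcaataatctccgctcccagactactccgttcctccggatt
The Cd34 window had a GC content of 50% and 7 CpG dinucleotides, whereas the other 4 had 69% to 74.7% and 29 to 34, where the median of all 32851 windows was 52.7% and 7. The Tcf7l2 window held 2 matches to the SOX letters ACAATG, which occur in 12.6% of all windows. Cd34 and the upstream Lhx2 window held 1 match each to the GLI letters, found in 9.30% of windows. The other letters searched occur in 3.65% (forkhead) to 21.4% (NFAT) of windows. Foxi3 and the downstream Lhx2 window held 0 matches to the letters searched. No overlapping matches of different letters were present in these windows, and a match is a description of sequence alone.

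**Figure D1:**
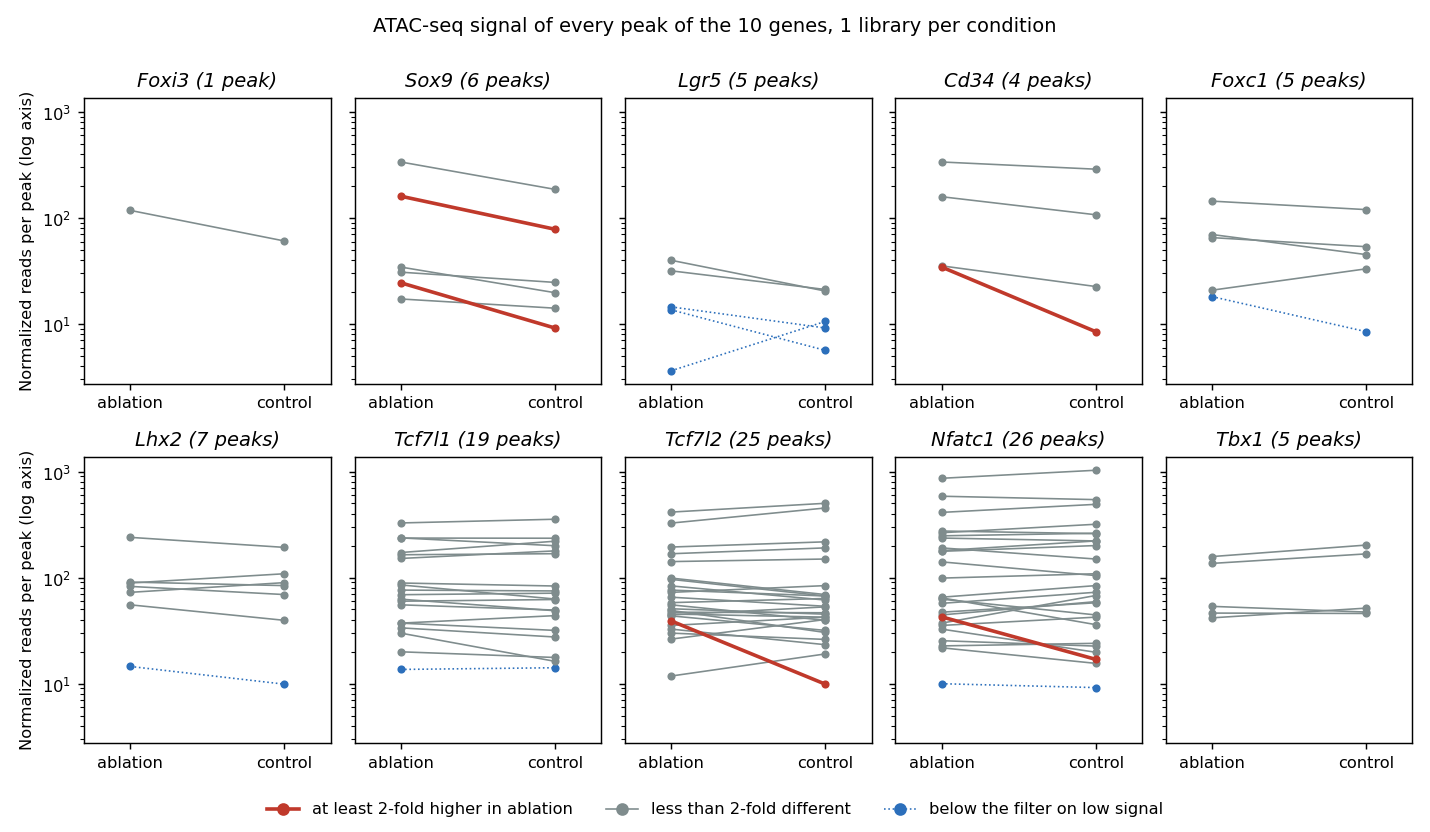
Normalized reads of each peak (log axis) in the ablation and control libraries, joined by a line, with 1 panel per gene. The 5 peaks at least 2-fold higher in ablation belong to Sox9, Cd34, Nfatc1 and Tcf7l2, and the 7 peaks under the filter on low signal are dotted.

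Of the 103 peaks 96 passed the filter on low signal, a mean of at least 13.96 normalized reads over both libraries, which treats both libraries alike. By the criterion of a 2-fold difference on log2(signal + 1), 5 of the 96 (5.21%) were higher in ablation, where 4.48% of all tested peaks were. At the same criterion 0 of the 96 were lower, where 1.88% of all tested peaks were. The share of higher peaks was thus near that of all peaks. Among the 5, the peaks of Cd34 and Tcf7l2 and the weaker peak of Sox9 had control signals under 13.96. These were 8.47, 9.88 and 9.17 normalized reads, so those peaks passed the filter through their signal in ablation. At 1.5-fold, 15 (15.6%) were higher, where 13.0% of all tested peaks were, and 4 (4.17%) were lower, where 7.47% were. More cells with an open site and a wider opening in each cell cannot be told apart in such libraries. The median log2 ratio of the 96 peaks was 0.14, against -0.01 over all tested peaks. Set against the median of the signal class of each peak, the median difference was 0.08. The 7 peaks that the filter removed had mean signals of 7.11 to 13.9, and 2 of them were past 2-fold higher and 1 past 2-fold lower. Of the 96 peaks, 68 belonged to Nfatc1, Tcf7l1 and Tcf7l2, with a median of 0.02, and 28 to the other 7 genes, with a median of 0.29.

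By summed signal the genes fell into a graded order, from Foxi3 at a log2 ratio of 0.95 through Sox9 (0.86), Lgr5 (0.77), Cd34 (0.41), Foxc1 (0.25), Lhx2 (0.11), Tcf7l1 (0.00), Tcf7l2 (-0.07) and Nfatc1 (-0.08) to Tbx1 at -0.24. The counting intervals of Foxi3, Sox9 and Lgr5 overlapped one another, as did those of Tcf7l1, Tcf7l2 and Nfatc1. In all, 5 genes had intervals above a ratio of 1, 2 had intervals below it and 3 had intervals that include it. The share of all genes with such intervals was not counted, so these counts do not set the 10 genes apart from other genes. The median log2 ratio of all genes was -0.07. Nfatc1, whose interval lay below 1, stood above 47.7% of all genes. At 2-fold, 0 of the 10 genes were higher, where 1.19% of all genes were, and 0 were lower, where 0.418% were. Of the 10 genes 3 were at least 1.5-fold higher in ablation, where 4.55% of all genes were, and 0 were at least 1.5-fold lower, where 1.49% of all genes were. The 10 genes were chosen with earlier results of these data known, and the shares were not matched for signal. Of the 3, Foxi3 rests on 1 peak and Lgr5 on 79 reads in ablation and 59 in control. Per kb of peak, the signal in ablation spanned 51.3 normalized reads at Lgr5 to 258 at Nfatc1, and in control 29.8 at Lgr5 to 273 at Nfatc1. Lgr5 was thus the least and Nfatc1 the most open of the 10 per length in both libraries.

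**Figure D2:**
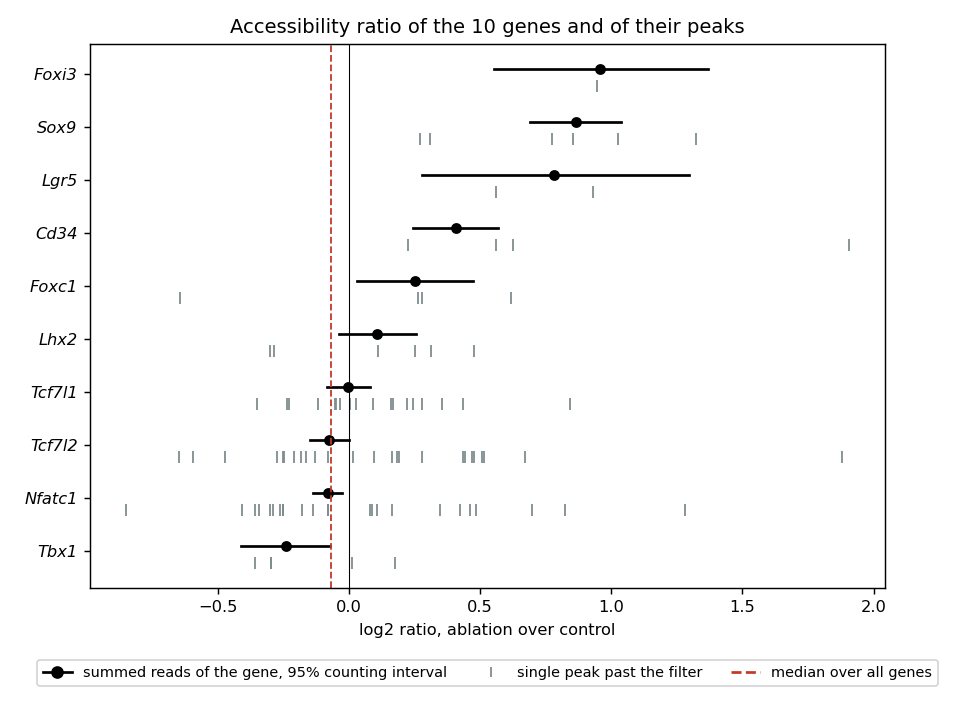
Log2 ratio of ablation to control for each gene from its summed reads (point, with 95% counting interval) and for each tested peak (tick), with a dashed line at the median over all genes, -0.07. Foxi3, Sox9 and Lgr5 stand highest, Tbx1 lowest, and the ticks of Tcf7l2 and Nfatc1 spread on both sides of 0.

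Sox9, an SRY-related factor needed to form and keep the bulge, had 6 peaks. All 6 peaks of Sox9 were above 0, where 48.7% of all tested peaks were. Its strongest peak, chr11:112781250-112783118, covers the lower-coordinate end of the gene and had 337 normalized reads in ablation and 186 in control (372 and 264 reads), 1.81-fold (1.54 to 2.13). The peak at chr11:112810813-112811918, 23.1 kb beyond the other end, had 161 normalized reads in ablation and 78.3 in control, 2.05-fold (1.61 to 2.62). A weak peak 36.5 kb beyond the same end had 24.5 normalized reads in ablation and 9.17 in control, 2.67-fold (1.33 to 5.63). The control signal of this weak peak alone lies under the 13.96 of the filter, so it passed through its signal in ablation. Its 2 peaks of at least 100 normalized reads stood at log2 ratios of 0.85 and 1.03, whereas the median over the 29173 tested peaks of that strength was -0.11. The peak 395 bp past the gene had 34.5 normalized reads in ablation and 19.8 in control. The 2 peaks on the lower-coordinate side, 14.2 kb and 49.4 kb away, had 30.8 and 17.2 normalized reads in ablation and 24.7 and 14.1 in control, with intervals of the ratio that include 1. Summed over its peaks, Sox9 had 605 normalized reads in ablation and 332 in control.

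Foxi3, a forkhead factor of hair placodes and of activated follicle progenitors, had 1 peak within 50 kb, at chr6:70956169-70957027 over its start and the whole window printed above. It had 118 normalized reads in ablation and 60.7 in control (130 and 86 reads), 1.94-fold (1.47 to 2.58). The log2 ratio of 0.95 lies just under the 2-fold limit and above the 95th percentile of tested peaks of its signal class, 0.78. The gene value of Foxi3 rests on this single region.

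Beyond 50 kb the genes Sox9 and Foxi3 had further peaks for which they are still the nearest protein-coding gene. Between 50 and 100 kb all 3 peaks of Foxi3 and 3 of the 4 of Sox9 were tested, and these 6 were at least 2-fold higher in ablation, where 7.25% of all 4098 tested peaks at that distance from any gene were. The nearest Foxi3 peak, 51.6 kb away at chr6:71012627-71013515, had 111 normalized reads in ablation and 45.2 in control, 2.45-fold (1.80 to 3.37). The next, 68.5 kb away, had 43.5 in ablation (48 reads) and a smaller signal in control (17 reads). It passed the filter through its signal in ablation and stands in the table run where 31.2% of all tested peaks were at least 2-fold higher. The last, 79.7 kb away, had 77.1 in ablation and 37.4 in control. All 3 lie on the higher-coordinate side of the gene. For Sox9, a peak 60.4 kb away at chr11:112720586-112721823 had 292 normalized reads in ablation and 134 in control (322 and 190 reads), 2.18-fold (1.82 to 2.62). The peak 52.5 kb away on the other side had 58.0 in ablation and 27.5 in control, and that 95.9 kb away 37.2 in ablation and 15.5 in control. The peak that the filter removed, 53.4 kb away, had 14 reads in ablation and 19 in control, a log2 ratio of -0.07. These 6 peaks are outside the rule of 50 kb; with them, 5 of 9 tested Sox9 peaks and 3 of 4 tested Foxi3 peaks were at least 2-fold higher. The other 6 tested peaks at this distance, of Nfatc1, Cd34, Foxc1 and Tcf7l2, were all under 2-fold, and 0 of the 12 tested peaks were at least 2-fold lower, where 2.24% of all tested peaks at that distance were. Just inside the limit, the Sox9 peak 49.4 kb away had a log2 ratio of 0.27, and just outside it the Nfatc1 peak 50.9 kb away had -0.18.

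**Figure D3:**
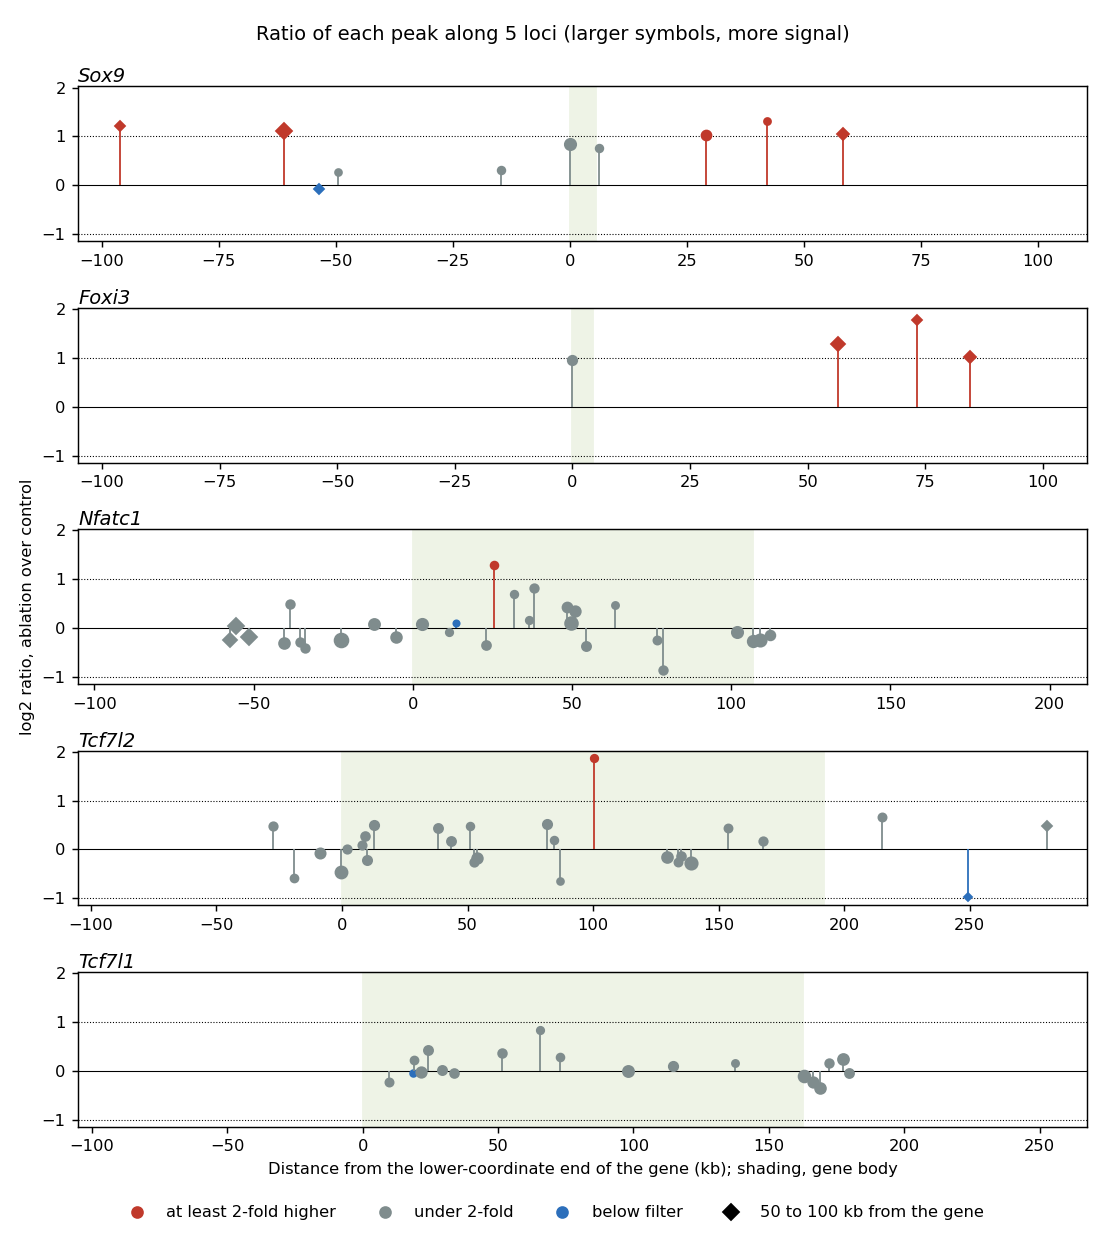
Log2 ratio of ablation to control of each peak against its distance in kb from the lower-coordinate end of the gene, for Sox9, Foxi3, Nfatc1, Tcf7l2 and Tcf7l1, with the gene body shaded and diamonds for peaks 50 to 100 kb from the gene. Higher peaks flank Sox9 on both sides and Foxi3 on the higher-coordinate side, while Nfatc1 and Tcf7l2 have 1 peak each past 2-fold among many near 0.

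Cd34, one of the pair of surface markers, held the peak with the highest ratio of the 96. This peak, chr1:194938684-194939176, covers the gene start and 187 bases of the window printed above and had 34.5 normalized reads in ablation and 8.47 in control (38 and 12 reads), 4.07-fold (2.08 to 8.56). Its control signal alone lies under the 13.96 of the filter, so it passed through its signal in ablation, and it stands in the table run where 31.2% of all tested peaks passed 2-fold upwards. In its signal class 10.3% of all tested peaks did. Tested peaks in start windows are mostly far stronger, with a median of 274 normalized reads, and of these 1.27% were at least 2-fold higher and 0.235% at least 2-fold lower. Of the 13 tested peaks of the 10 genes in start windows of any gene, 2 were at least 1.5-fold higher, where 4.63% of all such peaks were. At the same criterion 0 were lower, where 1.60% were. The 13 had a median signal of 89.3 normalized reads, against 274 for all such peaks, so these shares are not compared at like signal. Sox9, Lgr5 and Nfatc1, whose own windows were not matched, have no peak among the 13. The next peaks of Cd34 were stronger and differed less. A peak 1.03 kb past the gene had 159 normalized reads in ablation and 107 in control, 1.48-fold (1.18 to 1.85). The strongest, 14.8 kb past the gene, had 337 in ablation and 289 in control, 1.17-fold (1.01 to 1.35). It overlaps a start window that is not of Cd34, and it supplies much of the 566 normalized reads in ablation and 427 in control summed for the gene. The peak 29.6 kb before the gene had 35.4 in ablation and 22.6 in control, with an interval that includes 1. The gene value of Cd34 therefore depended on which peaks were taken. It was 1.91 with the peak that overlaps the gene alone and 0.22 for the strongest peak, that in the other start window. The cells of both libraries were sorted as CD34 negative, a gate on surface protein.

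Lgr5 had 5 peaks, of which 2 passed the filter, and all 5 were weak. Their signals ran from 3.63 to 39.9 normalized reads in ablation and from 5.64 to 21.2 in control. The strongest, chr10:115550037-115550579 inside the gene, had 39.9 normalized reads in ablation and 20.5 in control (44 and 29 reads), 1.95-fold (1.19 to 3.23). The peak over the higher-coordinate end of the gene, chr10:115587018-115587873, had 31.7 in ablation and 21.2 in control, with an interval that includes 1. The 3 removed peaks had 15, 4 and 16 reads in ablation and 8, 15 and 13 reads in control, too few to give a direction for any of them.

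Markers of the neighbouring upper follicle and sebaceous gland were measured beside these genes. All 8 had a tested peak, with log2 ratios from -0.53 (Defb6) to 0.52 (Pparg), a median of 0.12, and summed signals per gene of 29.0 to 2153 normalized reads in ablation and 42.3 to 2476 in control. Of their 69 peaks 8 (11.6%) passed 2-fold upwards in ablation, where 4.48% of all tested peaks did, and 1 (1.45%) downwards, where 1.88% did. Lrig1, the gene of the protein that the sort excludes, was at 1.20-fold (1.13 to 1.26). The part of follicle cells in the values of Sox9, Foxi3 and Cd34 was not tested.

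**Figure D4:**
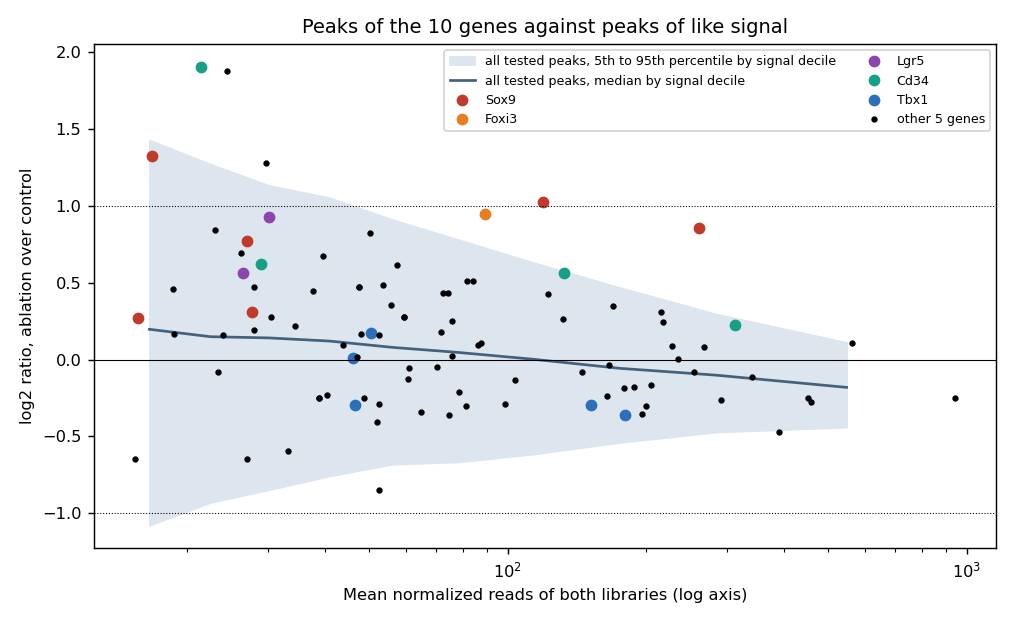
Log2 ratio of ablation to control of the 96 tested peaks against their mean normalized reads (log axis), over the median and the 5th to 95th percentile of all tested peaks in 10 signal classes. Of the 96 peaks 6 lie above the 95th percentile of their class (2 of Sox9 and 1 each of Foxi3, Cd34, Nfatc1 and Tcf7l2) and 2 below the 5th (1 each of Nfatc1 and Tcf7l2). By definition about 5% of all tested peaks lie beyond each limit, and the 6 of 96 are near that share.

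Foxc1 and Lhx2 stood in the middle of the order. Foxc1, a forkhead factor that holds bulge cells at rest, had 5 peaks. Its start peak, chr13:31806264-31807453, had 144 normalized reads in ablation and 120 in control, 1.20-fold (0.962 to 1.5). The peak over the gene body had 69.8 in ablation and 45.2 in control, 1.55-fold (1.10 to 2.19). A peak 8.68 kb before the gene went the other way, with 20.9 in ablation and 33.2 in control, but its interval includes 1, and the peak 5.22 kb before the gene had 65.3 in ablation and 53.6 in control. The weak peak 13.7 kb before the gene, with 20 reads in ablation and 12 in control, was removed by the filter.

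Lhx2, a LIM homeobox factor that restrains activation of bulge cells, had 7 peaks and a different sign at its 2 starts. The peak at the upstream start, chr2:38339061-38339885, had 72.6 normalized reads in ablation and 89.6 in control, 0.810-fold (0.604 to 1.08). The peak at the downstream start, chr2:38350586-38351621, had 239 in ablation and 193 in control, 1.24-fold (1.05 to 1.48). These intervals overlap at their edges, and the difference between the starts was not tested. The peak between them had 90.7 in ablation and 84.0 in control. The peak at the far end of the gene had 88.9 in ablation and 109 in control. The pair of peaks past it had 55.3 and 82.5 in ablation, against 39.5 and 69.2 in control. All 4 of these intervals include 1.

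The Wnt effectors Tcf7l1 and Tcf7l2, which with β-catenin or as repressors set Wnt responses and help keep bulge cells undifferentiated, had many peaks and summed ratios near that of all genes. Tcf7l2 had 25 peaks, 14 above and 11 below 0, where 48.7% of all tested peaks were above 0. Its start peak, chr19:55740983-55741953, which holds the whole window printed above, had 327 normalized reads in ablation and 453 in control (360 and 642 reads), 0.721-fold (0.632 to 0.821). This was the lowest ratio among the start windows of the 7 genes with matched windows. The strongest peak, chr19:55880572-55881294 in the gene body, had 414 in ablation and 502 in control, 0.826-fold (0.733 to 0.930). In the same gene body the peak at chr19:55842054-55842493 had 39.0 in ablation and 9.88 in control (43 and 14 reads), 3.95-fold (2.12 to 7.81), and passed the filter through its signal in ablation. All 5 Tcf7l2 peaks of at least 100 normalized reads were below 0, from -0.47 to -0.08, as were most peaks of that strength, since 33.9% of all 29173 were above 0. The lowest peak, chr19:55828608-55828824, had 13 reads in ablation and 27 in control, and its interval includes 1. The peak that overlaps the window of a second, downstream start by 26 bases had 43.5 in ablation and 31.8 in control, with an interval that includes 1.

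Tcf7l1 had 19 peaks, 18 of them tested, and a summed signal of 1943 normalized reads in ablation and 1946 in control, 0.999-fold (0.943 to 1.06). The start peak, chr6:72788674-72789683, was its strongest, with 327 in ablation and 355 in control, 0.922-fold (0.804 to 1.06). The highest ratio was at chr6:72691590-72691940 in the gene body, with 29.9 in ablation and 16.2 in control, 1.84-fold (1.05 to 3.29). The lowest lay 5.89 kb before the start, with 172 in ablation and 220 in control, 0.783-fold (0.650 to 0.940). No Tcf7l1 peak reached 2-fold in either direction, and 11 of 18 were above 0, where 48.7% of all tested peaks were.

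Nfatc1, a calcium-regulated factor that holds bulge cells at rest, was the most open of the 10 loci, with 26 peaks, 25 of them tested, and 4662 reads in ablation and 6336 in control. The strongest peak, chr18:80583104-80584150, lies 22.1 kb outside the gene and had 863 normalized reads in ablation and 1028 in control, 0.840-fold (0.773 to 0.912). The highest ratio was at chr18:80631534-80631938 in the gene body, with 42.6 in ablation and 16.9 in control (47 and 24 reads), 2.52-fold (1.51 to 4.30). The lowest, also in the gene body at chr18:80684361-80684946, had 37.2 in ablation and 67.7 in control, 0.549-fold (0.371 to 0.799). Of the Nfatc1 peaks 4 had counting intervals above 1 and 5 below it. The share of all tested peaks with such intervals was not counted, so these counts do not set Nfatc1 apart from other loci. The sum was 0.946-fold (0.910 to 0.982), close to the middle of all genes.

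Tbx1, a T-box factor linked to self-renewal of bulge cells, had the lowest gene value. Its 5 peaks summed to 435 normalized reads in ablation and 514 in control, 0.846-fold (0.753 to 0.951). The strongest, chr16:18574186-18574766, lies 6.21 kb from the gene and had 158 in ablation and 203 in control, 0.779-fold (0.642 to 0.944). The 2 peaks below 0 that overlap the gene had 136 and 41.7 in ablation and 167 and 51.5 in control. The start peak, chr16:18590406-18590870, had 53.5 in ablation and 47.3 in control, and the peak 721 bp before the gene 46.3 in ablation and 45.9 in control, both with intervals that include 1.

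Division by a single total and centring moved all 10 genes nearly alike, while the loess correction did not. When libraries were scaled to all reads of the table, with those of mitochondria, the median over all tested peaks moved by -0.33. The log2 ratio of Foxi3 was then 0.61, of Sox9 0.52, of Lgr5 0.43 and of Cd34 0.07, while Foxc1 was at -0.09 and Lhx2 at -0.23. The numbers of the 96 peaks past 2-fold were then 2 higher and 1 lower. Of all tested peaks past 2-fold, 24.1% were higher under this scaling, 70.4% as deposited, 87.7% with centring on the strongest decile of peaks and 52.8% after a loess correction for signal. With centring, a shift of 0.18, Sox9 stood at 1.04 and Tbx1 at -0.06. The loess correction put Lgr5 at 0.63 and Nfatc1 at 0.02, against 0.77 and -0.08 as deposited, and the median of all genes at 0.02, against -0.07. Under each of the 5 scalings Foxi3, Sox9, Lgr5 and Cd34 stayed above 0 and Tbx1 below it. As deposited 7 of the 10 genes stood above the median of all genes, and 8 did after the loess correction. The other scalings move the genes and that median together, so the count of 7 under them adds nothing.

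**Figure D5:**
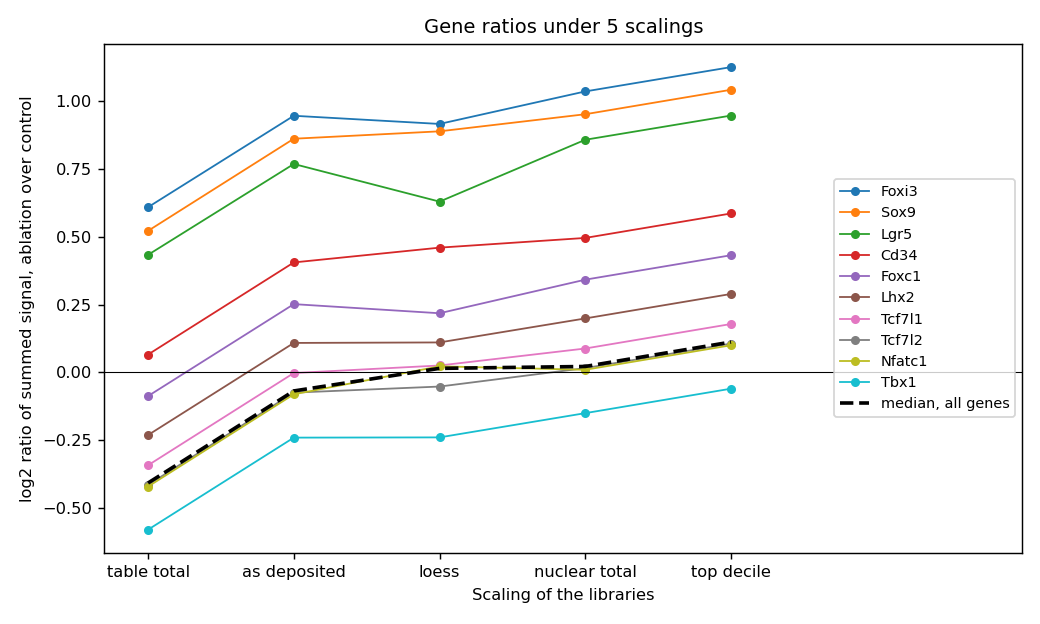
Log2 ratio of summed signal of ablation to control for each gene under 5 scalings of the libraries, with the median over all genes dashed. The dashed line runs between -0.41 with the table total and 0.11 with centring on the strongest decile of peaks, and the genes follow it except under the loess correction, where Lgr5 is lower and the dashed line higher than as deposited.

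Other genes of the bulge and hair germ programme had ratios on both sides of 0. All 44 genes of this list had a tested peak, and their median log2 ratio was -0.02, with 21 of 44 above 0, where 38.4% of all genes were. Of their 551 peaks 24 (4.36%) passed 2-fold upwards, against 4.48% of all tested peaks, and 7 (1.27%) downwards, against 1.88%. Highest was Fst, which encodes the activin and BMP antagonist follistatin, at 1.60-fold (1.42 to 1.81), with 542 normalized reads summed in ablation and 339 in control. Edar, the ectodysplasin receptor of placodes, and Runx1, a factor of follicle activation, followed at 1.23-fold (1.15 to 1.31) and 1.19-fold (1.12 to 1.27). Lowest were the hemidesmosome collagen Col17a1, which is also in the basal marker list, at 0.785-fold (0.741 to 0.833), the corepressor Tle4 at 0.819-fold (0.779 to 0.862) and the homeobox factor Msx2 at 0.822-fold (0.764 to 0.884).

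Relatives of the 10 genes by sequence had a tested peak in 24 of 26 cases, with a median log2 ratio of 0.03 and 14 of 24 above 0, where 38.4% of all genes were. Foxi1 and Foxi2 had none. Sox8 was highest at 1.45-fold (1.22 to 1.73), with 260 normalized reads in ablation and 179 in control. Foxd3 and Sox10, factors of the neural crest (Sox10 is also in the melanocyte list), were at 1.42-fold (1.11 to 1.83) and 1.32-fold (1.06 to 1.65). Lowest were Tbx3 at 0.837-fold (0.772 to 0.908), Nfat5 at 0.886-fold (0.824 to 0.953) and Foxq1 at 0.901-fold (0.853 to 0.952). Of the 169 peaks of the relatives 5 (2.96%) passed 2-fold upwards, below the 4.48% of all tested peaks, and 2 (1.18%) downwards, below the 1.88%.

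The table lists its peaks in 3 sorted runs whose meaning is not stated, and the ratio differs between them. Of the 103 peaks 11 stand in the first run, where 31.2% of all tested peaks were at least 2-fold higher, and 4 in the second, where 16.1% were at least 2-fold lower. The start peak of Cd34 and the weak Sox9 peak 36.5 kb from the gene stand in the first run, where 5 of the 11 were tested. The other 3 of the 5 higher peaks (of Sox9, Nfatc1 and Tcf7l2) stand in the third, where 2.44% of all tested peaks were at least 2-fold higher, against 3 of 88 (3.41%) of the tested peaks of these genes there.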

How the data were processed

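ATAC-seq signal was compared between 1 ablation and 1 control library of sorted mouse basal epidermal cells. The submitters' processing notes name build mm10 and, with no roles, HTSeq, MACS2 2.1.0.20151222, Picard, Bowtie2 2.3.4.2 and Trimmomatic. A single table of normalized signal per peak was deposited by the authors. All values (100%) were whole multiples of 1 step per library, within 0.1 of a read (0.907 in ablation, 0.706 in control), so whole reads were recovered; no count test is possible with 1 library per group. How the authors chose the factors and selected the peaks is not stated. Columns were matched by name, although the number 2 in the control column differs from that in the sample title, and the column with Exp in its name was taken as ablation, as the only one left. Of 116411 rows, exact repeats were merged to 84594 peaks, and 3 mitochondrial peaks were left out. Unused columns numbered 0. Whether starts count from 0 or 1 is not stated; coordinates are as in the table.

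Log2 ratios used a pseudocount of 1 on peaks at or above the 10th percentile of mean signal. Intervals of the ratio of reads are exact (Clopper-Pearson), take no pseudocount and cover counting error only; a count of 0 (3 reads) allows 2.72 normalized reads in ablation and 2.12 in control. Genes were taken from a RefSeq table (GRCm38.p6); it gives no exons, so peaks are described as at the start, in the gene body or outside. Each gene was given the log2 ratio of signal summed over its tested peaks. All 10 genes are named, each with its strongest, highest and lowest peak and every peak past 2-fold; of other lists, the 3 highest and 3 lowest genes with at least 50 reads are named, and genes of the marker lists were named after their values were seen. Members and lists were chosen with earlier results of these data known. The ratio, call and interval were tested on simulated reads. Alternatives covered the pseudocount, filter, scaling, window, fold, table run and gene value. Python 3.11.15 was used with matplotlib 3.10.9, statsmodels 0.14.6, scipy 1.17.1, pandas 2.3.3 and numpy 2.4.6.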

Additional observations from a re-analysis of the deposited data

Results flagged for a closer look

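Mitochondrial peaks stand outside the comparisons, and their share of reads was larger in ablation (31.2%) than in control (7.31%). Their part in the ratios of the 10 genes was not tested beyond the scaling by the table total.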

How the results depend on the processing

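The number of member peaks at least 2-fold higher, 5 of 96, was 3 with the filter at the 25th percentile, with peaks within 5 kb, with peaks overlapping a gene and in the longest table run alone, 2 with the table total, 10 with centring on the strongest decile, 11 within 100 kb and 15 at 1.5-fold. The number lower, 0, was 1 without the filter, 1 with the table total and 4 at 1.5-fold. The smaller windows and the single run hold fewer peaks by construction, and the 100 kb window adds the flanks of Sox9 and Foxi3; for the scalings the shift of all peaks moves the counts. The median log2 ratio of 0.14 was -0.20 with the table total and 0.32 with centring on the strongest decile. Its difference from all tested peaks was 0.15. Scaling by a single factor moves both medians alike, so the totals and the centring could not change this difference. Among the alternatives that could, it kept its sign, at 0.08 after a loess correction and 0.12 with peaks within 5 kb. Over all tested peaks, higher peaks made up 70.4% of the changed ones as deposited, 24.1% with the table total, 79.7% with the nuclear total, 87.7% with centring and 52.8% after loess. Of 140 gene values under alternatives 110 stayed within the counting interval and 30 moved beyond it; 15 changed sign, all of Tcf7l1 (6), Nfatc1 (4), Tcf7l2 (3), Lhx2 (1) and Foxc1 (1). Peaks of few reads limit Lgr5 most. No paired analysis was possible because each condition has 1 library.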
